A study of Mus musculus with 6 samples.

Results

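A set of 10 genes of efferocytosis, the clearance of dying cells by phagocytes, was described in CD11b+ cells purified from tumors that TC1 cells formed in MCT2 CO and MCT2 KO mice. They were *Adgrb1*, *Timd4*, *Mertk*, *Axl* and *Lrp1* (receptors), *Gas6*, *Pros1* and *Mfge8* (bridging molecules), and *Elmo1* and *Dock1* (engulfment signaling), found by symbol as 10 of the 25701 genes in the count table. All 10 passed the filter on low counts, as did 13485 genes in all. The genes were selected on a function, but *Adgrb1* was chosen by its fold change between these same samples, and the values of the other genes were known as well. Every fold change of the 10 genes is therefore given as a description. Mice of both groups carried the conditional MCT2 allele and an inducible Cre that is not restricted to myeloid cells (MCT2loxP/loxP; Cre+) and were 8 weeks old at treatment. MCT2 KO mice received tamoxifen, MCT2 CO mice vehicle, and TC1 cells, a mouse lung epithelial tumor line, were injected under the skin of the flank 2 days later and grown for 24 days. Tamoxifen itself and loss of MCT2 thus cannot be told apart, and the tumor cells kept their own MCT2 gene. The tissue is given as lung in the sample labels, whereas the design and the methods describe flank tumors. The labels name the cells purified macrophages. Each group had 3 samples, and the labels do not state whether each came from a single mouse, so p-values measure only the spread between these samples, which may be technical.

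Dying cells expose phosphatidylserine on their surface. Phagocytes bind it directly, through receptors such as TIM-4 (*Timd4*) and BAI1 (*Adgrb1*), or through soluble bridging molecules. GAS6 links phosphatidylserine to the receptor tyrosine kinases TYRO3, AXL and MERTK, and protein S (*Pros1*) links it to TYRO3 and MERTK. MFG-E8 (*Mfge8*) links it to alpha-v integrins. BAI1 passes its signal to the ELMO1 and DOCK1 complex, which activates the small GTPase RAC1 and reshapes actin around the corpse. LRP1 binds calreticulin and complement-coated cargo. MERTK is the receptor most closely tied to corpse clearance by tissue macrophages, and TIM-4 marks several resident macrophage populations.

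Total counts ranged from 24863611 to 31713704 per sample. The targeted gene *Slc16a7* averaged 12.8 ± 2.84 (MCT2 CO) and 6.18 ± 1.78 (MCT2 KO, SD, n = 3), without overlap of the groups, in CPM (counts relative to the TMM-scaled size of the library). MCT2 CO replicate 3, at -22.7 against -3.13 and -3.54 on the first principal component, and MCT2 KO replicate 2, at -22.5 on the second component with the other samples between -3.06 and 9.26, stood apart from their groups. Macrophage and monocyte markers (11 genes) summed to 4743 to 6251 CPM in MCT2 CO and 5815 to 8835 in MCT2 KO. *Itgam*, which encodes CD11b itself, had 0 counts in 5 samples and 0.0307 CPM in MCT2 KO replicate 2, so CD11b could not be checked on it. Fibroblast and mesenchymal markers (11 genes) summed to 2144 to 3503 CPM in MCT2 CO and 1800 to 1903 in MCT2 KO. This separation rested on *Col3a1*, without which the sums were 957 to 1476 and 880 to 1098 CPM, and 4 of the 11 genes had all MCT2 KO samples below all MCT2 CO samples. Neutrophil markers (10 genes) summed to 110.1 to 126 CPM in MCT2 CO and 115 to 199 in MCT2 KO, and 7 of the 10 genes had all MCT2 KO samples above all MCT2 CO samples. Among the 7, *Ngp*, a neutrophil granule gene, was at 0.133 to 0.376 CPM in MCT2 CO and 1.17 to 15.3 in MCT2 KO. *Ly6g*, also among them, stayed at 0.123 CPM or less in every sample. The markers outside the 7, *Csf3r*, *Cxcr2* and *Mmp9*, overlapped between the groups. *Csf3r*, the largest of the list in every sample but MCT2 KO replicate 2, was at 93.0, 94.3 and 70.9 CPM in MCT2 CO. In MCT2 KO it was at 120, 41.1 and 117.6 CPM. *Cxcr2* was also lowest in MCT2 KO replicate 2 (0.553 CPM), whereas *Mmp9* was highest there (47.3 CPM). The part of neutrophil RNA in the genes that were higher in MCT2 KO, *Adgrb1* included, was not tested. Dendritic cell markers (351 to 729 against 461 to 970.1 CPM) overlapped, and most of these sums was *Itgax* alone (304.6 to 690.5 against 438.9 to 914.9 CPM). Markers of T cells (15.3 to 85.6 CPM over the samples), B cells (8.35 to 24.9) and endothelial cells (89.8 to 145) summed to less than those of macrophages in every sample. So did those of NK cells (21.3 to 40.1) and epithelial tumor cells (33.5 or less). Most of the epithelial sums was *Cdh1* alone (13.2 to 32.03 CPM), and the keratins stayed at 0.201 CPM or less. According to the paper, separating TC1 cells from host mesenchymal cells for certain would need lineage tracing or copy-number analysis. The part of TC1 RNA in these samples, the fibroblast and mesenchymal sums included, was not tested. Gene by gene, 5 of 8 B cell and 3 of 6 NK cell markers had all MCT2 KO samples below all MCT2 CO samples. The same held for 1 of 7 dendritic cell markers, whereas 1 of 6 epithelial tumor markers had all MCT2 KO samples above. The sums of the B cell and NK cell lists overlapped between the groups. *Prf1*, an NK cell marker that overlapped, leaned higher in MCT2 KO. It was at 8.44, 13.4 and 5.68 CPM in MCT2 CO and at 13, 19.9 and 26.8 in MCT2 KO. The B cell markers *Cd79b* and *Cd22* were highest in MCT2 KO replicate 1 (10.9 and 10.6 CPM). Both were lowest in MCT2 KO replicate 2 (1.23 and 4.67 CPM). Whether B or NK cells differed in number was not tested. In such bulk samples, fewer cells of a type and less RNA per cell cannot be told apart.

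Across the 10 genes, *Adgrb1* was the single gene whose level differed severalfold between the groups, whereas the group means of *Dock1* (171 and 169.9 CPM in MCT2 CO and MCT2 KO), *Pros1* (196 and 194) and *Elmo1* (106 and 105) lay close together. A gene counted as called if its adjusted p was 0.05 or less and its log2 fold change 0.58 or more in either direction. By edgeR's quasi-likelihood test, 0 of the 10 genes were called, as were 0% of all genes tested. At an unadjusted p under 0.05 there was 1 of the 10, *Adgrb1*, higher in MCT2 KO, beside 9.37% of all genes (3.77% higher and 5.6% lower). All samples of one group lay on one side of the other group in 2 of the 10, *Adgrb1* and *Lrp1*, both higher in MCT2 KO. Over all genes tested, this held for 15.8% (7.07% higher and 8.77% lower). DESeq2 called 1 of the 10, *Adgrb1*, among the same genes, of which it called 0.586%, and also when every gene with 1 or more counts was entered, of which it called 0.448%. The median log2 fold change was 0.10 over the 10 genes and 0.00037 over all genes tested.

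**Figure D1:**
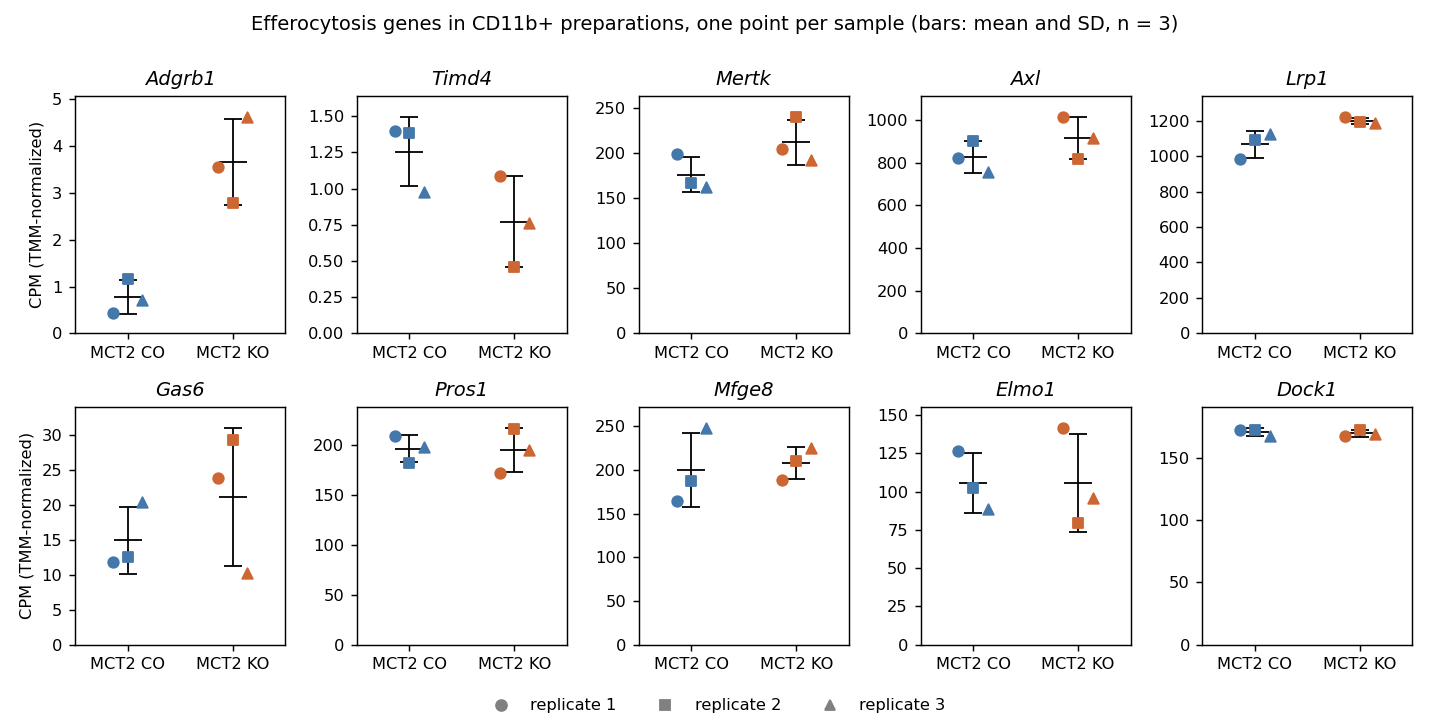
CPM after TMM scaling (y axis, from 0) of each of the 10 genes in the 3 MCT2 CO and 3 MCT2 KO samples; symbols give the replicate number, and bars the mean and SD. Only *Adgrb1* and *Lrp1* show all MCT2 KO samples above all MCT2 CO samples, and *Gas6* in MCT2 KO runs from 10.2 to 29.3 CPM.

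The genes were next placed in order of level, as CPM per kb of exon. This scale compares genes of different length if reads come from exons, and a share of intronic reads, which per-gene totals cannot show, would raise genes with long introns such as *Dock1* and *Elmo1*. All levels are those of the whole preparation, in which fibroblast and mesenchymal markers summed to 1800 to 3503 CPM. The share of each level that came from phagocytes was not tested. *Axl* led at 150 to 201 CPM per kb over the 6 samples, above 98.7% of the genes tested, and *Lrp1* followed at 55.5 to 68.9. *Pros1* (42.0 to 52.8), *Mertk* (37.5 to 55.3) and *Mfge8* (35.1 to 52.8) overlapped, and their order is not fixed by these samples. *Dock1* (18.0 to 18.5) lay below them and above its partner *Elmo1* (6.32 to 11.2), which overlapped *Gas6* (4.00 to 11.5). *Timd4* and *Adgrb1* were lowest. In MCT2 CO, *Timd4* was at 0.577 ± 0.110 CPM per kb (SD, n = 3), above *Adgrb1* at 0.106 ± 0.0503. In MCT2 KO, the ranges of the pair overlapped, with *Timd4* at 0.355 ± 0.145 and *Adgrb1* at 0.507 ± 0.127. Averaged over all samples, these levels were above those of 11.2% and 7.74% of the genes tested. Per kb of whole gene span instead, *Axl* still led (24.1 to 32.2 CPM per kb) and *Timd4* and *Adgrb1* were still lowest (0.00592 to 0.0631), but the middle of the order changed. *Mfge8* (10.8 to 16.2) then overlapped *Lrp1* (11.9 to 14.7), and *Gas6* (0.350 to 1.01) lay above *Dock1* (0.333 to 0.344) in every sample.

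**Figure D2:**
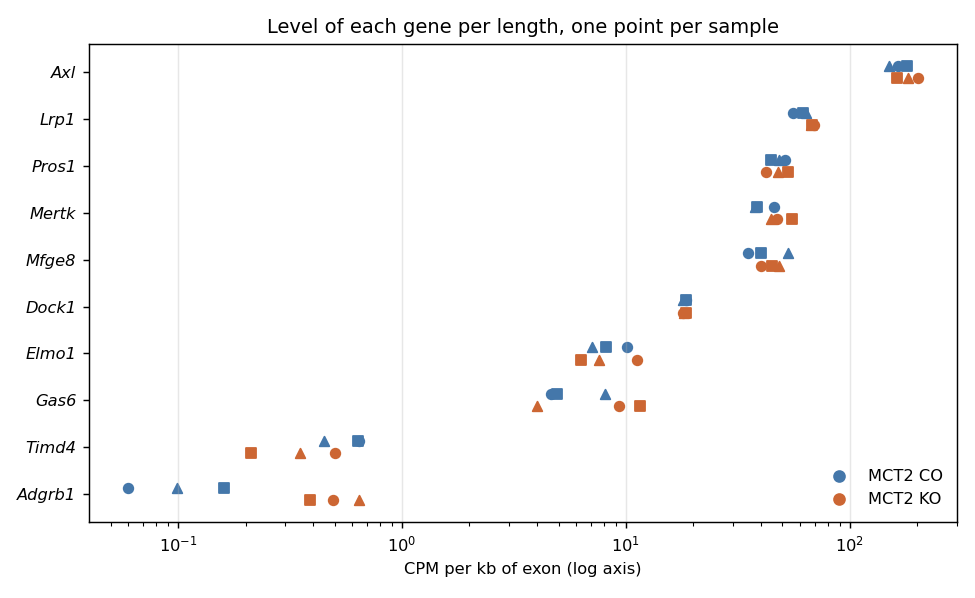
CPM per kb of exon (x axis, logarithmic) of the 10 genes in order of their mean over 6 samples; circles, squares and triangles are replicates 1, 2 and 3. *Axl* stands at 150 to 201, whereas *Timd4* and *Adgrb1* stay below 1, and *Adgrb1* is the gene whose colors separate most widely.

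To show receptor genes from both ends of this order, the 250 bases before the start of *Axl* (chr7:25788734-25788983, minus strand), *Mertk* (chr2:128698665-128698914, plus strand), *Lrp1* (chr10:127621149-127621398, minus strand) and *Timd4* (chr11:46810549-46810798, plus strand) are given from RefSeq on GRCm38.p6, 5′ to 3′. Capitals mark matches on either strand to the GC box GGGCGG and the PU.1 core GAGGAA. Overlapping matches run together.
Axl: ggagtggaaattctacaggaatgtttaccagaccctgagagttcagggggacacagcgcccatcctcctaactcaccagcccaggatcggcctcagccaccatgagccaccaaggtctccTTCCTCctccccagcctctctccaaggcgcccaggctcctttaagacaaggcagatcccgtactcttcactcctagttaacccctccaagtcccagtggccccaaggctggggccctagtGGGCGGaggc
Mertk: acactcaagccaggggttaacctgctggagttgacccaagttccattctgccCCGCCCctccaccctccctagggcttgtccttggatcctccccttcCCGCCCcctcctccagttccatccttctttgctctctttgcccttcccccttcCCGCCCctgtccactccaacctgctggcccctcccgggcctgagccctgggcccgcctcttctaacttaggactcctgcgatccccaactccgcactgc
Lrp1: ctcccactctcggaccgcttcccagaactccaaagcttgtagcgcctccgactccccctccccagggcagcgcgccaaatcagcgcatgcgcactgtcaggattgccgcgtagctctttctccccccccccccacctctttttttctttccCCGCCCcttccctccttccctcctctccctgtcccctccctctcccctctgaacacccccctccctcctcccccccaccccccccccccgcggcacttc
Timd4: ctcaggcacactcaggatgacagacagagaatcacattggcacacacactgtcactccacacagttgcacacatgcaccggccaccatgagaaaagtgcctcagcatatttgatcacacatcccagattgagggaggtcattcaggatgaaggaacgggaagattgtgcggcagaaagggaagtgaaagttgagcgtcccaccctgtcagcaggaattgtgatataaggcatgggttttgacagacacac
The GC box was found 3 times before *Mertk* and once each before *Axl* and *Lrp1*, and in 32.7% of 32851 promoters of the same length. A PU.1 core was found before *Axl*, and in 23.3% of all promoters. Neither was found before *Timd4*, and the AP-1 motif TGANTCA (6.75% of all promoters) and the box TATAAA (12.4%) were found before none of these 4 genes. Promoters were matched for 9 of the 10 genes, the exception being *Adgrb1*.

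*Adgrb1* (ENSMUSG00000034730, chromosome 15 of GRCm38, 74516195 to 74589465, plus strand) encodes BAI1, an adhesion G protein-coupled receptor that binds phosphatidylserine. Of its reads, 13, 30 and 19 were counted in replicates 1, 2 and 3 of MCT2 CO, and 85, 91 and 115 in those of MCT2 KO. These came to 0.434, 1.15 and 0.715 CPM in MCT2 CO and 3.56, 2.79 and 4.62 in MCT2 KO. The lowest MCT2 KO sample was thus above the highest MCT2 CO sample, and within MCT2 CO the samples differed by more, relative to their mean (coefficient of variation 47.3%), than within MCT2 KO (25.1%). The summed counts were 62 (exact Poisson 95% interval 47.5 to 79.5) in MCT2 CO and 291 (258.5 to 326) in MCT2 KO, intervals that cover counting error only. The log2 fold change was 2.26 (standard error, SE, 0.37, with a 95% interval of 1.41 to 3.10), which ranked 13 of 13485 from the top. The quasi-likelihood test of edgeR gave an adjusted p of 0.370 and DESeq2's Wald test, on the same genes, one of 4.01e-05; over all 14 alternative fits it ranged from 1.92e-05 to 0.764. Leaving out single samples gave log2 fold changes of 1.96 to 2.67. No other listed gene overlaps *Adgrb1*. Whether its few reads lay in exons or in introns was not tested, since the table holds 1 total per gene and the lengths in it are those of whole gene spans.

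*Elmo1* and *Dock1* encode the adaptor and the exchange factor downstream of BAI1. *Elmo1* (chromosome 13, 20090596 to 20608353) was at 127, 102 and 88.3 CPM in MCT2 CO and at 141, 79.5 and 95.6 in MCT2 KO. Its highest and its lowest value both came from MCT2 KO, and its log2 fold change was -0.0053 (SE 0.22, 95% interval -0.50 to 0.49). *Dock1* (chromosome 7, 134670654 to 135173639) was at 172.2, 172.8 and 167.5 CPM in MCT2 CO and at 167.6, 172.9 and 169.4 in MCT2 KO. It varied least among the 10 genes over all 6 samples, with a log2 fold change of -0.0076 (SE 0.072) and a 95% interval of 0.887 to 1.12 for the ratio of MCT2 KO to MCT2 CO. A severalfold difference like that of *Adgrb1* lay outside the 95% intervals of both genes. On the scale of CPM per kb of exon, *Dock1* exceeded *Elmo1* in every sample, by 1.60-fold (MCT2 KO replicate 1) to 2.93-fold (MCT2 KO replicate 2).

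*Mertk* (ENSMUSG00000014361, chromosome 2, 128698956 to 128802894, plus strand) encodes the receptor tyrosine kinase of corpse uptake. Its values were 199, 167 and 163 CPM in MCT2 CO and 204, 239.9 and 192 in MCT2 KO. The groups overlapped through MCT2 CO replicate 1, which lay above MCT2 KO replicate 3, and they no longer overlapped with either of these samples left out (28.5% and 22.3% of all genes separated in these fits). The log2 fold change was 0.27 (SE 0.12, 95% interval -0.0043 to 0.54, adjusted p = 0.540 in edgeR's quasi-likelihood test), and it was positive in all 14 alternative fits, from 0.17 to 0.36. *Axl* (chromosome 7, 25757273 to 25788705), the receptor with the strongest preference for GAS6, was at 823, 903 and 756 CPM in MCT2 CO and at 1013.5, 818 and 918 in MCT2 KO. MCT2 KO replicate 2, which had the highest *Mertk*, had the lowest *Axl* of its group, below MCT2 CO replicates 1 and 2. The log2 fold change of *Axl* was 0.15 (SE 0.12, 95% interval -0.13 to 0.42). Per kb of exon, *Axl* exceeded *Mertk* by 4.08 ± 0.548-fold in MCT2 CO and 3.78 ± 0.731-fold in MCT2 KO (SD, n = 3), and the ranges of this ratio overlapped. *Tyro3*, the remaining member of this receptor family, was lower at 9.99 ± 1.18 and 8.89 ± 0.526 CPM per kb, with a log2 fold change of -0.17 (SE 0.11).

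*Gas6* (ENSMUSG00000031451, chromosome 8, 13465374 to 13494490, minus strand) and *Pros1* (chromosome 16, 62854307 to 62929346) encode ligands of this receptor family. *Gas6* was at 11.8, 12.5 and 20.5 CPM in MCT2 CO and at 23.8, 29.3 and 10.2 in MCT2 KO. It varied most within MCT2 KO (coefficient of variation 46.6%), where replicates 1 and 2 lay above and replicate 3 below all MCT2 CO samples. The log2 fold change was 0.50 (SE 0.37, 95% interval -0.35 to 1.35), and it ranged from 0.19 without MCT2 KO replicate 2 to 0.84 without MCT2 KO replicate 3. The span of *Tmem255b*, on the opposite strand, covers 36.5% of the exon bases of *Gas6*, and coding genes nested in such spans had almost no counts in this table, so the level of *Gas6* may be too low. *Pros1* was at 209, 182 and 197 CPM in MCT2 CO and at 172, 216 and 195 in MCT2 KO. The groups overlapped throughout, and the log2 fold change was -0.012 (SE 0.11, 95% interval -0.26 to 0.23). Per kb of exon, *Pros1* exceeded *Gas6* by 4.50-fold to 11.9-fold over the 6 samples, both extremes being MCT2 KO samples (replicates 1 and 3).

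*Mfge8* (chromosome 7, 79133768 to 79149060) encodes the bridging molecule to integrins. It was at 165, 188 and 248 CPM in MCT2 CO and at 188.5, 210.5 and 226 in MCT2 KO, a log2 fold change of 0.058 (SE 0.15, 95% interval -0.29 to 0.41). MCT2 CO replicate 3 had both the highest *Mfge8* and, at 3503 CPM, the highest sum of fibroblast markers, and it also had the highest *Gas6* of its group. The part of RNA from stromal or TC1 cells in the levels of *Mfge8* and *Gas6* was not tested. Without this sample, the log2 fold change of *Mfge8* was 0.24 and the groups did not overlap, as for 22.1% of all genes in that fit. The integrin subunit *Itgav*, to whose product MFG-E8 binds, averaged 332 CPM (MCT2 CO) and 384 CPM (MCT2 KO), with overlap of the groups.

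*Lrp1* (ENSMUSG00000040249, chromosome 10, 127538161 to 127621148, minus strand), a large endocytic receptor, was at 983, 1090 and 1126 CPM in MCT2 CO. In MCT2 KO it was at 1220.2, 1196 and 1187 CPM, a spread of 1.44% of the mean against 6.95% in MCT2 CO. All MCT2 KO samples lay above all MCT2 CO samples, but by little, with a log2 fold change of 0.17 (SE 0.098, 95% interval -0.055 to 0.40, adjusted p = 0.621 in edgeR's quasi-likelihood test). Leaving out single samples gave log2 fold changes of 0.12 to 0.21. *Timd4* (chromosome 11, 46810800 to 46844332) had 42, 36 and 26 counts in MCT2 CO and 26, 15 and 19 in MCT2 KO. This corresponds to 1.40, 1.38 and 0.978 CPM in MCT2 CO and 1.09, 0.460 and 0.763 CPM in MCT2 KO. It was the gene of the 10 with the lowest log2 fold change, -0.73 (SE 0.35, 95% interval -1.54 to 0.093), and the groups overlapped in MCT2 CO replicate 3 and MCT2 KO replicate 1. The sign was negative in all 14 alternative fits (-1.04 to -0.44), at summed counts of 104 (exact Poisson 95% interval 85.0 to 126) and 60 (45.8 to 77.2).

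**Figure D3:**
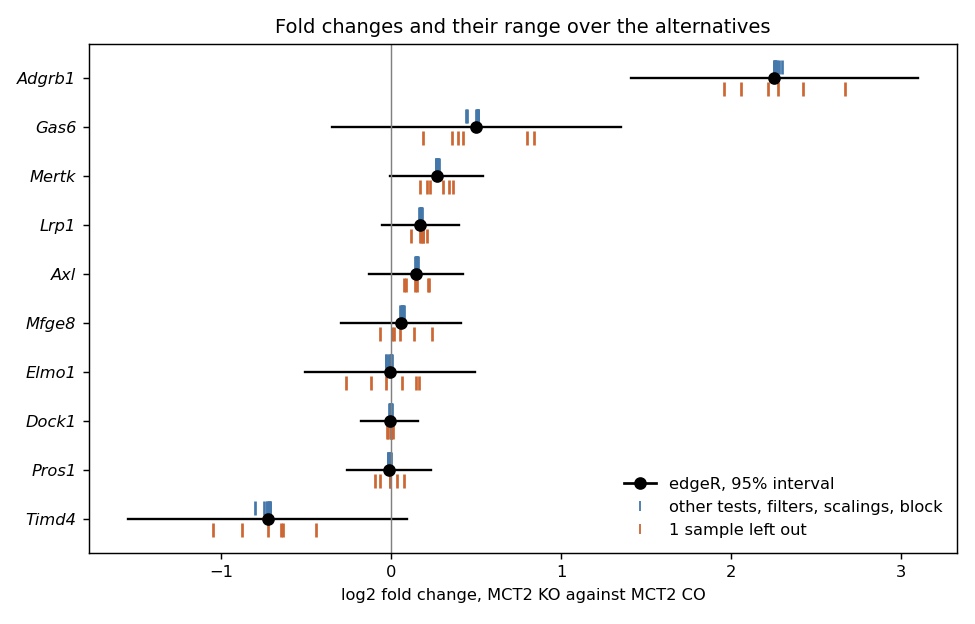
Log2 fold change of MCT2 KO against MCT2 CO (x axis) of the 10 genes: edgeR estimate with its 95% interval (black), 8 alternative fits (upper ticks) and 6 fits with 1 sample left out (lower ticks). The interval of *Adgrb1*, 1.41 to 3.10, is the only one of the 10 that does not include 0.

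The other genes of efferocytosis were taken from 6 lists of 83 genes in total, and 77 had enough counts to be tested. None was called by edgeR's quasi-likelihood test (smallest adjusted p = 0.436), and DESeq2 called 0 as well. At an unadjusted p under 0.05, 7 were higher and 0 lower in MCT2 KO, beside 3.77% and 5.6% of all genes. The groups did not overlap in 9, all higher, beside 7.07% of all genes higher and 8.77% lower. In either direction, these shares of all genes were 9.37% and 15.8%. The median log2 fold change was 0.076 over these genes. Separate groups together with a log2 fold change of 0.58 or more were found for *Abca1* and *Arg1*. *Abca1*, the exporter of cholesterol gained from engulfed cells, was at 235, 169 and 151 CPM in MCT2 CO and at 376, 258 and 244 in MCT2 KO (log2 fold change 0.66, SE 0.21). *Arg1*, the arginase that degrades corpse-derived arginine, was at 2.43, 1.81 and 2.45 CPM in MCT2 CO and at 3.10, 10.5 and 3.13 in MCT2 KO (log2 fold change 1.34, SE 0.49), with replicate 2 of MCT2 KO far above the other 5 samples.

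By role, the bridging molecules and opsonins had the highest median log2 fold change, 0.27, with 7 of 8 genes above 0. *C1qa* and *C1qb* of this list are also macrophage markers, and the list of macrophage and monocyte markers had a median of 0.21 itself. The part of macrophage RNA in these medians was not tested. The phosphatidylserine and apoptotic-cell receptors followed at 0.14, with 13 of 15 above 0. Within them, *Cd300lb*, a phosphatidylserine receptor, did not overlap between the groups at 9.18 ± 0.714 and 12.2 ± 1.63 CPM (SD, n = 3). Lipid sensing and metabolic response genes stood at 0.13 (6 of 11 above 0), and receptors of find-me signals with the shedding proteases at 0.11 (7 of 8). Engulfment signaling, at 0.0052 (10 of 19), and cargo digestion, at -0.0032 (8 of 16), were centered near 0. In engulfment signaling, *Elmo2* and *Dock5*, relatives of *Elmo1* and *Dock1*, had log2 fold changes of 0.047 (SE 0.086) and -0.028 (SE 0.089). Counts of several genes could be reduced by overlapping genes: other spans cover 51.4% of the exons of *Rac1*, 64.4% of *Lamp1*, 85.3% of *Becn1* and 100% of *Cd300lf*, which was at 0 counts.

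**Figure D4:**
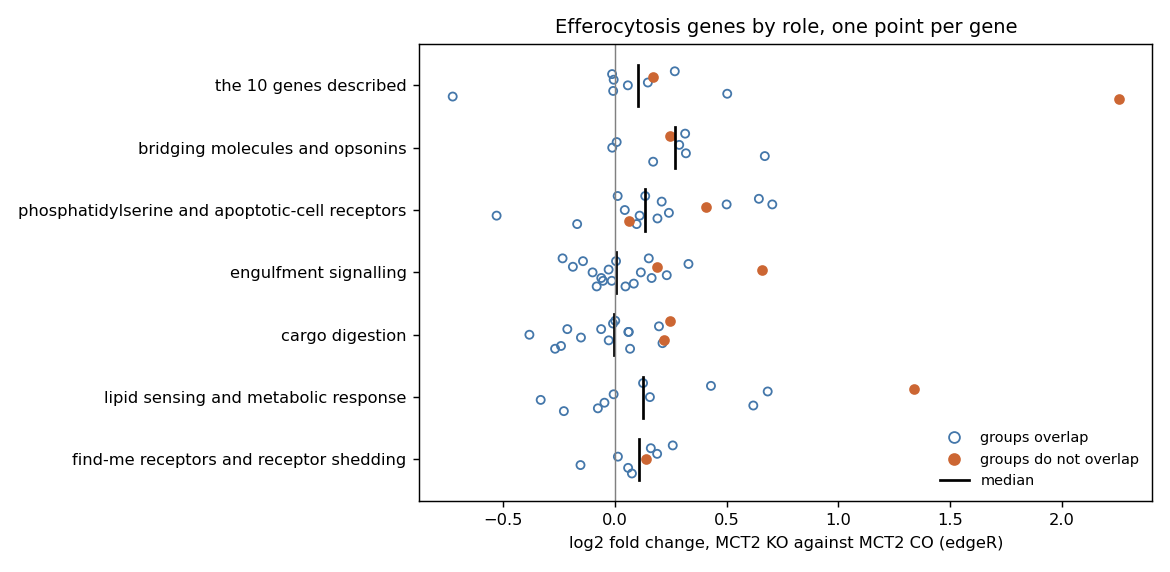
Log2 fold change of MCT2 KO against MCT2 CO (x axis) of the 10 genes described and of 77 other efferocytosis genes by role, with one point per gene; filled points have groups that do not overlap, and black lines are medians. The medians of the 6 other lists lie between -0.0032 and 0.27, and *Adgrb1*, at 2.26, is the point farthest to the right.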

How the data were processed

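Poly-A RNA of 3 MCT2 CO and 3 MCT2 KO samples was sequenced with a stranded kit. Per the submitters' processing notes, FastQC 0.12.0 and MultiQC 1.28 were used for quality control, STAR 2.7.11b for alignment (GRCm38) and featureCounts 2.1.1 for counting. The authors deposited whole-number counts of each sample, neither normalized nor pooled. The annotation and strand setting are not given in the sources used here. Gene lengths in the table are whole spans, and of 459 coding genes nested in a gene of the opposite strand, 458 had 0 counts, against 20% of coding genes that overlap none. Only 2.41% of gene starts in the table match GENCODE M21 (GRCm38), although 98.1% of span lengths do. The reason was not tested. Gene positions and exon lengths given here were taken from M21 by Ensembl identifier, so most positions are not those of the count table.

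Genes kept by filterByExpr (minimum count 10, minimum total 15) were TMM-scaled and tested with edgeR 4.0.16 (quasi-likelihood, no covariates, Benjamini–Hochberg adjustment over 13485 genes) in R 4.3.3. Standard errors were obtained from the log2 fold change and its F statistic, and 95% intervals from the same fit. DESeq2 1.42.0, limma 3.58.1 (voom), other scalings and filters, a replicate block and leaving out each sample were the alternatives. Levels per kb of gene span and the fibroblast sum without *Col3a1* were added after seeing the data. Both tests were checked on counts simulated with edgeR's dispersions, a setting that follows edgeR's model. There the share of false calls stayed under the threshold of 0.05 with edgeR and exceeded it with DESeq2. Total counts limit precision chiefly for *Adgrb1* and *Timd4*. No replicate pair differed as little as a library deposited again would.

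The 10 genes and all lists were chosen with earlier results of these data known. Named were the 10 genes, *Slc16a7*, and, by rule, pathway genes without overlap of the groups and with a log2 fold change of 0.58 or more in size. Single genes named beyond that (*Tyro3*, *Itgav*, *Cd300lb*, *Elmo2*, *Dock5*, *Ngp*, *Csf3r*, *Cxcr2*, *Mmp9*, *Ly6g*, *Col3a1*, *Itgax*, *Cdh1*, *Prf1*, *Cd79b*, *Cd22*, *C1qa*, *C1qb* and the genes with overlapping spans) were chosen after their values were seen.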

Additional observations from a re-analysis of the deposited data

How the results depend on the processing

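The 0 genes called by edgeR's quasi-likelihood test (1264 at an unadjusted p under 0.05) became 79 by DESeq2 on the same genes, 83 when DESeq2 was given every gene with 1 or more counts and 2 without a filter on low counts, and DESeq2 in both forms called 1 of the 10 genes, *Adgrb1*. With each sample left out in turn, 0 to 2 genes were called (2 without MCT2 KO replicate 2). The number of the 10 genes whose groups did not overlap then ranged from 2 to 4, and it was 4 without MCT2 CO replicate 3 (with *Mfge8* and *Timd4*) and without MCT2 KO replicate 3 (with *Mertk* and *Gas6*). With fewer samples, such separation is more frequent, at 22.1% and 22.3% of all genes in these fits. The median log2 fold change of the 10 genes, 0.10, lay between 0.099 and 0.17 over all alternatives, the highest being that without MCT2 KO replicate 2. On the simulated counts, false calls made up 11.2% of the calls of DESeq2 and 2.42% of those of edgeR. Both recovered 90% of 4-fold changes. Since those counts were drawn with edgeR's own dispersions, they cannot decide how far the DESeq2 calls, *Adgrb1* included, hold in these samples. The sign of *Elmo1*, *Dock1*, *Pros1* and *Mfge8* depended on the fit, that of the other 6 genes did not. Deviations from the group means correlated at 0.22, -0.25 and -0.16 for pairs with the same replicate number in the titles. MCT2 CO replicate 3 correlated best with MCT2 KO replicate 2 (0.29), and the library names of these samples share a number. So do those of MCT2 CO replicate 2 and MCT2 KO replicate 1, which correlated at 0.058. With 3 samples per group, such values cannot decide whether the samples were paired. With the replicate block, 0 genes were called, and 1048 had an unadjusted p under 0.05.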
